A study of Arabidopsis thaliana with 6 samples.

Results

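The nuclear genes described here encode parts of the light-harvesting antenna, the photosystems, chlorophyll and haem synthesis and a few related chloroplast proteins of *Arabidopsis thaliana*. They were picked by a rule on gene symbols that uses no measured value, though the rule was written with earlier results of these data known. A gene was a member if a single-gene probe set was annotated to it, its AGI locus code was nuclear and its current symbol began with LHC, PSA, PSB, PET, RBCS, PNS, PORA, PORB, PORC, CHL, HEM, GAPA, GAPB, PPL or PTAC, or was RCA or CAS. This gave 21 of the 13356 genes with a single-gene probe set, and each member had 1 such probe set. In RefSeq's gene table for TAIR10.1, 99 nuclear genes carry a symbol of this form, and the other 78 were not analysed here. The members were 3 antenna genes, 3 of photosystem II, 2 of photosystem I, 1 of carbon fixation, the calcium sensor gene *CaS* and 11 whose symbols fall under chlorophyll and haem synthesis. No gene of the PET, RBCS, PNS, GAPA, GAPB, PPL or PTAC symbols was among them.

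The series compared inflorescences of the mutant *top1α-2* with those of the wild type. All plants were of the ecotype Landsberg erecta and were grown at 23 °C in continuous light, and the labels give no age. Total RNA of 3 wild-type and 3 *top1α-2* samples, called biological replicates in the series, was labelled with biotin and hybridised to 1 Affymetrix array each. *TOP1α* encodes a DNA topoisomerase I, an enzyme that relaxes supercoiled DNA, and the comparison asks which transcripts differ when this gene is mutated. The nature of the allele is not described in the labels, and the probe set of *TOP1α* is unnamed here, so the labels could not be checked on the mutated gene.

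Light energy is gathered by chlorophyll-binding antenna proteins and passed to photosystem II and photosystem I in the thylakoid membrane, which together drive electrons from water to NADPH. Most of the antenna and many small photosystem subunits are encoded in the nucleus, while the reaction centre cores are encoded in the plastid. Chlorophyll and haem share a pathway of tetrapyrrole enzymes that starts from glutamate in the plastid. In inflorescences, these genes are expressed in green parts such as sepals, young carpels and the stem.

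Values are log2 MAS5 signals. Each array had been scaled to a trimmed mean of 500 on the unlogged scale, with 2% of probe sets trimmed at each end. Over probe sets above the median signal, the correlation between arrays of different genotype was 0.887 to 0.939, lower than the 0.955 or more of wild-type pairs and the 0.978 or more of mutant pairs. Of 7 measured markers of flowers and inflorescences, 0 were called in either direction by limma and 2 had an unadjusted p under 0.05, 1 in each direction. *TSO1*, *SPT*, *YAB3* and *PHV* had mean signals above the median of all probe sets, 7.73, whereas *UFO* and *CLV3* lay below its first quartile. The median log2 change of these markers was −0.33, and their array means were lower in *top1α-2* without overlap, at 6.70 to 6.88 against 6.96 to 7.02. These means take in the dim *UFO* and *CLV3*, which changed by −0.70 and −0.43. *YAB3* and *INO* changed by −0.33 and −0.44, while *TSO1*, *SPT* and *PHV* had positive changes of 0.06, 0.09 and 0.30. The separation of the means thus does not show a fall in each marker. The 3′ minus 5′ signal of 1 actin control, a sign of RNA quality, was 4.03 ± 0.07 in *top1α-2* against 3.57 ± 0.19 in the wild type (SD, n = 3), without overlap, while 5 other such control differences overlapped. Its part in the results was not tested. Precision is limited by the number of arrays.

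Of the 21 genes, 5 rose in *top1α-2* inflorescences, 0 fell and 16 were not called. The 5 were *LHCB4.2*, of a photosystem II antenna protein, the thylakoid calcium sensor gene *CaS*, *PORB*, of chlorophyll synthesis, the chloroplast lipocalin gene *CHL* and *PSBW*, of a photosystem II subunit. Their increases were 1.5-fold to 1.73-fold. A gene was called at a limma adjusted p under 0.05, with adjustment over all 22746 probe sets tested. Of all these probe sets 3.40% were called higher and 5.86% lower, so that 36.7% of the calls were higher, and 49.7% after median centring of the arrays. The members thus had 23.8% called higher, but they are mostly bright, and within the brightest 25% of all probe sets 7.43% were called higher and 7.30% lower. The 5 calls depended on the variance prior: with a prior that does not follow the signal 0 members were called. At an unadjusted p under 0.05, 14 members were higher and 1 was lower. At that threshold 10.9% of all probe sets were higher and 12.4% lower, and in the brightest 25% these shares were 21.9% and 13%. The median log2 change of the members was 0.46, beside 0.00 for all probe sets tested and 0.09 for the brightest 25%.

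The members fell into a bright and a dim set. The 17 members with a mean log2 signal above 9.23, the start of the brightest 25%, ran from 9.35 to 13.90 and all had a positive log2 change, from 0.13 to 0.79. A positive change was found in 62.6% of the brightest 25% of probe sets. In 15 of these 17 every mutant array was higher than every wild-type array. In the brightest 25% as a whole 25.4% of probe sets were separated in this direction, and of all probe sets tested 13.7%. The 4 members below that limit had mean signals from 4.79 to 7.44, and all had a negative log2 change, from −1.69 to −0.13. They are *HEMA2*, *HEMA3*, *hemb2* and *hemf2*, further gene copies of tetrapyrrole enzymes. Outside the brightest 25%, 9364 of 17063 probe sets had a negative change. In 2 of the 4 dim members the *top1α-2* values lay below those of the wild type, where 14.5% of all probe sets did so. The split into bright and dim members was made after the values were seen and is a description.

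**Figure D1:**
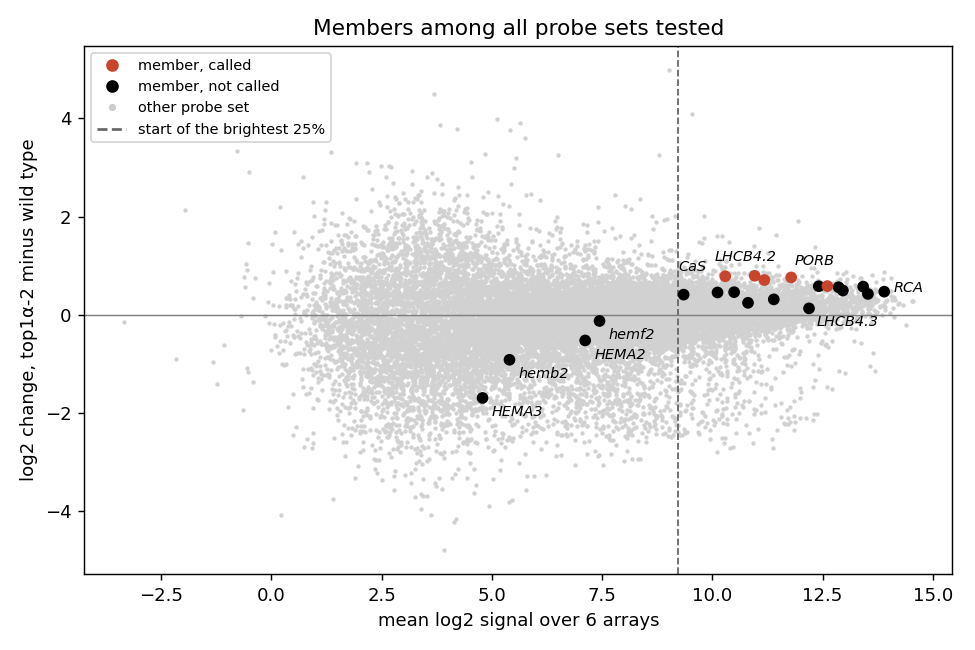
Mean log2 signal over the 6 arrays (x axis) and log2 change of *top1α-2* minus wild type (y axis) for the 22746 probe sets tested (grey) and the 21 members, with the 5 called members in red and the others in black. The dashed line marks the start of the brightest 25% at 9.23, and the 17 members to its right lie above 0 while the 4 to its left lie below 0.

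The antenna was represented by the 3 genes of *LHCB4*, whose product, CP29, is a monomeric chlorophyll-binding protein that links the outer antenna trimers to the photosystem II core. *LHCB4.2* (AT3G08940) had log2 signals of 10.32, 10.83 and 10.54 on the wild-type arrays and 11.40, 11.47 and 11.20 on the *top1α-2* arrays. The 3 mutant values were close together and all above the highest wild-type value. The means were 10.56 ± 0.26 and 11.36 ± 0.14 (SD, n = 3), which is a difference of 0.79 (SE 0.14, limma adjusted p = 0.00484), or 1.73-fold. Its call held with each single array left out, where the largest limma adjusted p was 0.0288 and the change ran from 0.67 to 0.93.

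The other antenna genes were brighter on the array and were not called. *LHCB4.1* (AT5G01530) had 13, 13.53 and 13.42 in the wild type and 13.99, 13.67 and 13.56 in *top1α-2*. The groups did not overlap, though the lowest mutant value lay just above the highest wild-type one. Its log2 change was 0.42, with a 95% interval from 0.02 to 0.83 and a limma adjusted p of 0.196. *LHCB4.3* (AT2G40100), whose product is sometimes counted as a separate antenna protein, had 11.92, 12.21 and 12.25 in the wild type and 12.44, 12.26 and 12.07 in *top1α-2*. These values overlapped, and *top1α-2* replicate 3 was lower than both wild-type replicates 2 and 3. The change was 0.13, with an interval from −0.18 to 0.44 and a limma adjusted p of 0.635.

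Within photosystem II the gene of PsbW was called. PsbW is a small membrane-spanning subunit that helps hold the antenna to the core. *PSBW* (AT2G30570) had 12.12, 12.31 and 12.52 in the wild type and 12.99, 12.89 and 12.82 in *top1α-2*. The mutant values lay above all wild-type values, with means of 12.32 ± 0.20 and 12.90 ± 0.09 (SD, n = 3). The log2 change was 0.58 (SE 0.13, limma adjusted p = 0.0216). With single arrays left out the adjusted p ran up to 0.0809, and the call held in 2 of the 6 such fits.

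*PSB27* (AT1G03600), of a lumenal protein of photosystem II assembly and repair, had a change of the same size, 0.58, but a larger SE of 0.18. Its values were 11.85, 12.45 and 12.07 in the wild type and 13.01, 12.53 and 12.57 in *top1α-2*. Replicate 1 was the highest of the mutant arrays and the groups did not overlap, and the limma adjusted p was 0.0751. *PSBY* (AT1G67740), whose precursor is cut into small membrane peptides of photosystem II, went from 12.71 ± 0.26 to 13.21 ± 0.07 (SD, n = 3), a change of 0.49 (limma adjusted p = 0.0731). All 3 mutant values, 13.21, 13.27 and 13.14, lay above the wild-type values of 12.41, 12.88 and 12.85.

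Neither gene of photosystem I was called. *PSAE-1* (AT4G28750) encodes a stromal subunit at the docking site of ferredoxin, and its values were 12.88, 13.40 and 13.12 in the wild type and 13.90, 13.67 and 13.55 in *top1α-2*. *PSAN* (AT5G64040), of a lumenal subunit on the side where plastocyanin docks, had 12.02, 12.94 and 12.79 against 13.22, 13.01 and 13.20. In both genes the mutant arrays were all higher, by 0.57 with an interval from 0.20 to 0.95 and by 0.56 with an interval from 0.08 to 1.04. The limma adjusted p values were 0.0645 and 0.146. Wild-type replicate 1 was far below the other wild-type arrays in *PSAN*, and without it the change was 0.28.

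*RCA* (AT2G39730) encodes Rubisco activase, which frees the carbon-fixing enzyme Rubisco of bound inhibitors. Its values were 13.38, 13.89 and 13.72 in the wild type and 14.43, 13.93 and 14.04 in *top1α-2*. The lowest mutant value was only slightly above the highest wild-type value. The change was 0.47 with a 95% interval from 0.04 to 0.90 and a limma adjusted p of 0.175, so *RCA* was not called.

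*CaS* (AT5G23060), of a thylakoid protein that takes part in calcium signals, stomatal closure and acclimation to strong light, had 9.48, 10.03 and 10.19 in the wild type. On the *top1α-2* arrays it had 10.80, 10.60 and 10.65. The groups were well separated and the mutant arrays nearly alike, with means of 9.90 ± 0.37 and 10.68 ± 0.10 (SD, n = 3). The increase was 0.78 on the log2 scale, or 1.72-fold (SE 0.17, limma adjusted p = 0.0140). The call was lost without *top1α-2* replicate 1, at an adjusted p of 0.0723, and held without each of the other arrays.

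*CHL* (AT3G47860) met the rule through its symbol but encodes a chloroplast lipocalin, a lumenal protein that protects thylakoid lipids from oxidation, and not an enzyme of chlorophyll synthesis. Its values were 10.42, 11.10 and 10.96 in the wild type and 11.67, 11.28 and 11.65 in *top1α-2*. All mutant values were higher, with *top1α-2* replicate 2 closest to the wild type. The means were 10.83 ± 0.36 and 11.53 ± 0.22 (SD, n = 3), and the change was 0.71 (SE 0.18, limma adjusted p = 0.0322). The call held in 2 of the 6 fits with an array left out, where the adjusted p ran up to 0.131.

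Of the 10 enzymes of the tetrapyrrole pathway, 1 rose and 0 fell. That gene was *PORB* (AT4G27440), of protochlorophyllide oxidoreductase B, which carries out the light-dependent step of chlorophyll synthesis. It had 10.94, 11.70 and 11.58 in the wild type and 12.09, 12.29 and 12.12 in *top1α-2*. The mutant arrays were within a narrow range above the wild type, at 12.17 ± 0.11 against 11.41 ± 0.41 (SD, n = 3). The change was 0.76, or 1.69-fold (SE 0.18, limma adjusted p = 0.0252). Leaving out *top1α-2* replicate 1, 2 or 3 ended the call, and the largest limma adjusted p was 0.0916, and it held without each wild-type array.

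The other 5 bright enzymes had smaller changes and were not called. *HEME1* (AT3G14930) and *HEME2* (AT2G40490), both of uroporphyrinogen III decarboxylase, changed almost alike, by 0.45 and 0.46, with limma adjusted p values of 0.112 and 0.0841. *HEME1* was at 9.49, 10.19 and 9.99 in the wild type and at 10.34, 10.33 and 10.36 in *top1α-2*, so the mutant arrays agreed within a few hundredths of a unit. *HEME2* was at 9.94, 10.52 and 10.33 in the wild type and at 10.87, 10.61 and 10.69 in *top1α-2*. In both genes the groups did not overlap.

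On the magnesium branch, which leads to chlorophyll, *CHLI2* (AT5G45930), of a subunit of magnesium chelatase, had 8.76, 9.28 and 9.39 in the wild type and 9.75, 9.47 and 9.44 in *top1α-2*. Its change was 0.41 (limma adjusted p = 0.171). *CHLM* (AT4G25080), of the methyltransferase of the following step, had a change of 0.31 (limma adjusted p = 0.289), and its groups overlapped because wild-type replicate 2, at 11.56, reached the mutant range of 11.50 to 11.58. *HEMB1* (AT1G69740), of 5-aminolevulinate dehydratase, which acts before the branch, had the smallest of these changes, 0.24 with an interval from −0.01 to 0.50 and a limma adjusted p of 0.237. Its wild-type arrays ran from 10.48 to 10.84 and its mutant arrays from 10.87 to 11.01.

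**Figure D2:**
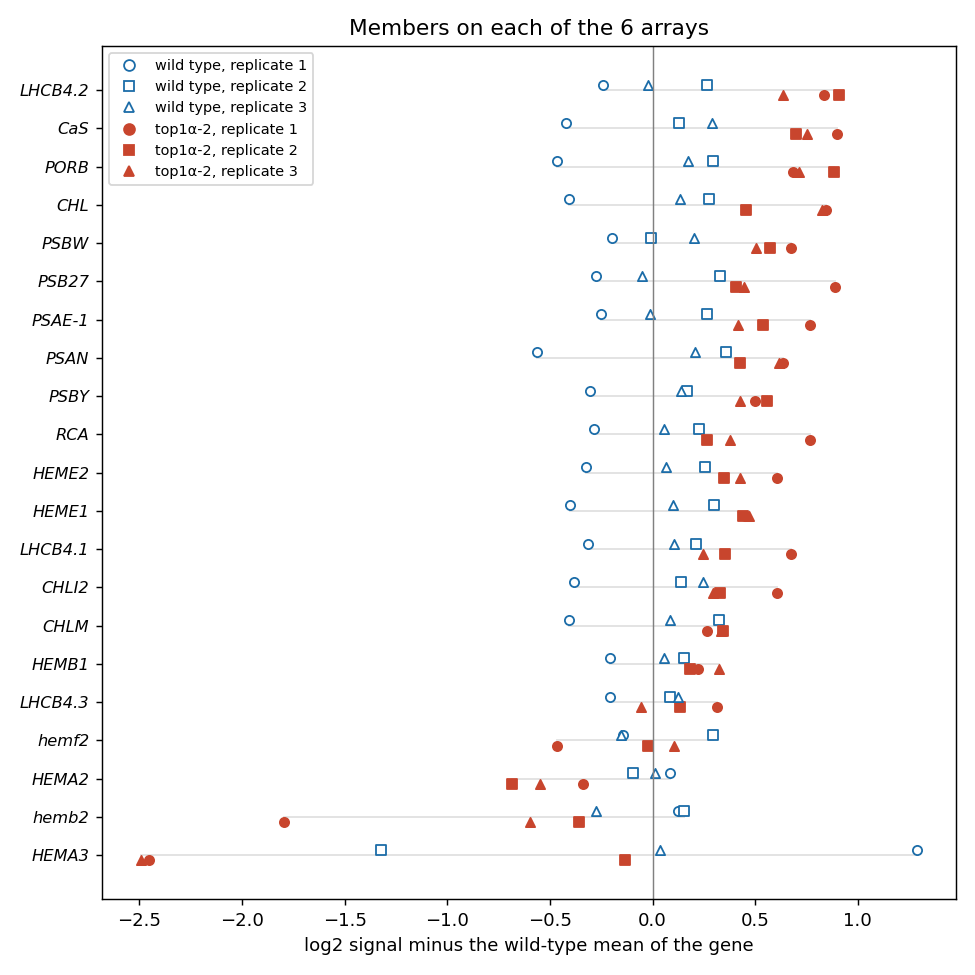
Log2 signal of each member on each array minus the wild-type mean of that gene (x axis), with wild-type arrays as open blue symbols and *top1α-2* arrays as filled red ones, and replicates 1, 2 and 3 as circles, squares and triangles. The blue circle of wild-type replicate 1 is leftmost in each of the 17 genes from *LHCB4.3* upward, and the arrays of *HEMA3* are spread over more than 3 log2 units.

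The 4 dim members are all of the tetrapyrrole pathway. *HEMA2* (AT1G09940) and *HEMA3* (AT2G31250) encode copies of glutamyl-tRNA reductase, the enzyme of the first committed step, and the main copy of green tissue, *HEMA1*, was not analysed here. *HEMA2* had 7.46, 7.28 and 7.39 in the wild type and 7.04, 6.69 and 6.83 in *top1α-2*. All mutant values were lower, and the change of −0.52 had a 95% interval from −0.99 to −0.06 and a limma adjusted p of 0.161. It was the member counted above as lower before adjustment.

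*HEMA3* had 6.92, 4.31 and 5.67 in the wild type and 3.18, 5.50 and 3.14 in *top1α-2*. The arrays of each genotype differed by more than 2 log2 units among themselves and the groups overlapped. The change of −1.69 had an interval from −3.49 to 0.10 and a limma adjusted p of 0.243. *hemb2* (AT1G44318), named as a further copy of the dehydratase gene, had 5.98, 6.01 and 5.58 in the wild type and 4.06, 5.50 and 5.26 in *top1α-2*. The groups did not overlap, with *top1α-2* replicate 1 far below the rest, and its change was −0.92 (limma adjusted p = 0.280). *hemf2* (AT4G03205), of coproporphyrinogen III oxidase, had 7.36, 7.80 and 7.35 against 7.04, 7.48 and 7.61, a change of −0.13 with an interval from −0.62 to 0.37 and a limma adjusted p of 0.791. No detection calls were used, so these low signals do not show whether the transcripts were present.

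**Figure D3:**
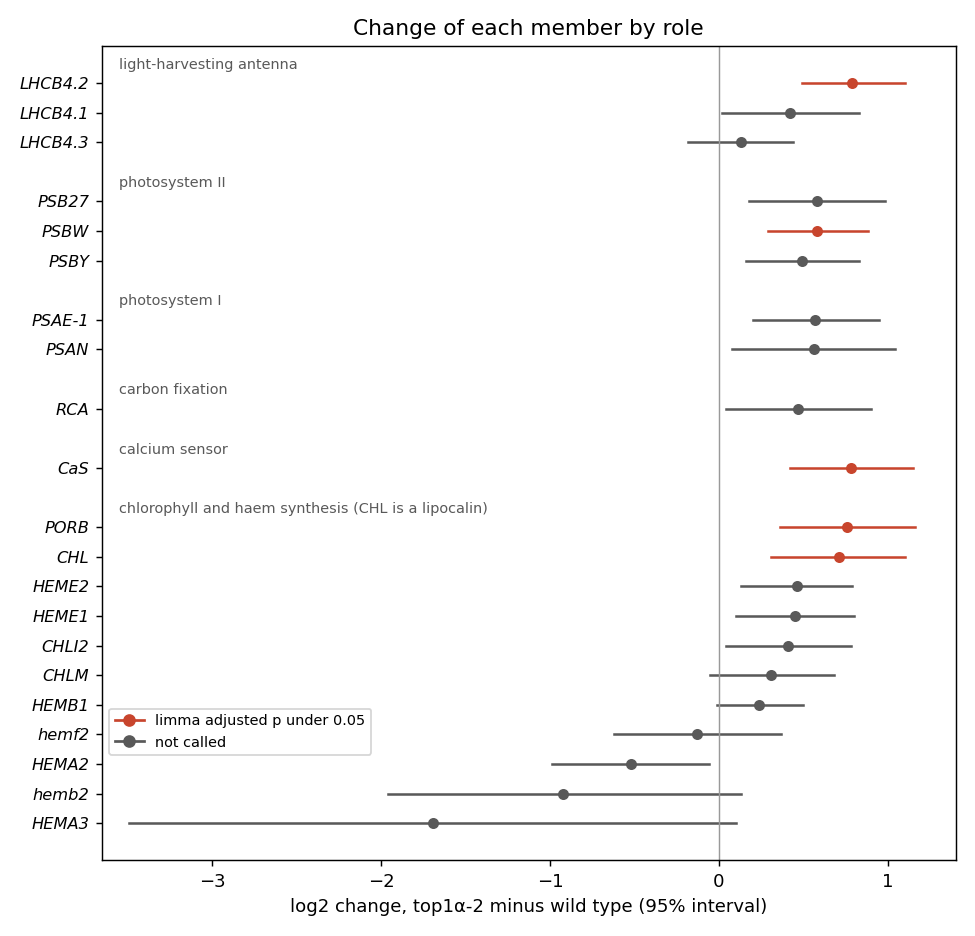
Log2 change of *top1α-2* minus wild type with its 95% interval from limma (x axis) for each member, grouped by role, with called members in red. The 5 called genes have intervals that start between 0.29 and 0.49, and the intervals of *HEMA3* and *hemb2* are the widest.

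Changes of gene copies of the same protein were compared within arrays. On each array, the signal of *LHCB4.2* minus that of *LHCB4.3* was −1.60, −1.38 and −1.71 in the wild type and −1.04, −0.79 and −0.87 in *top1α-2*. The 3 mutant values were all higher, by 0.66 on average. *LHCB4.2* changed by 0.37 more than *LHCB4.1*, and *LHCB4.1* by 0.29 more than *LHCB4.3*, again with no overlap. The signed change of *HEMB1*, 0.24, was higher than that of *hemb2*, −0.92, by 1.16 without overlap. *HEMA2*, at −0.52, fell less than *HEMA3*, at −1.69, a signed difference of 1.17 with overlap. *HEME1* and *HEME2* differed in change by −0.01, with overlap. Of the 6 pairs compared, the 4 without overlap had a two-sided exact permutation p of 0.100, which is the smallest that 3 arrays against 3 allow, and 0.150 after Benjamini-Hochberg adjustment over the pairs. No pair could therefore pass a threshold of 0.05, and a difference in change between copies is not shown by these tests. Probe sets of similar genes can share signal, so that copies of a family carry that uncertainty.

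The bright members shared a low wild-type replicate 1, while the order of the other arrays of each genotype differed between genes. Their mean was 11.19, 11.74 and 11.63 on the wild-type arrays and 12.15, 11.98 and 11.98 on the *top1α-2* arrays. Wild-type replicate 1 was the lowest of the 6 arrays in all 17 bright members, where it was lowest in 33.0% of the brightest 25% and 20.0% of all probe sets. The SD was larger in the wild type than in *top1α-2* in 15 of the 17, and in 59.3% of the brightest 25%. Without wild-type replicate 1 the median change of the 21 members was 0.28 in place of 0.46, and 3 genes were called, *LHCB4.2*, *CaS* and *PORB*, at limma adjusted p values of 0.0109, 0.0116 and 0.0223. Without wild-type replicate 2 there were 9 calls, and without *top1α-2* replicate 1, 2 and 3 there were 1, 3 and 2.

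Markers of pollen moved in the opposite direction. Of 20 measured pollen markers 15 fell and 0 rose, where 5.86% of all probe sets were called lower and 3.40% higher. The median log2 change of these markers was −1.64. Their summed unlogged signal was 4975 to 5706 on the mutant arrays against 13209 to 18241 on the wild-type arrays. The mean log2 signal of the list was 8.93, 8.12 and 8.35 on the wild-type arrays and 6.94, 6.91 and 6.92 on the *top1α-2* arrays, so that wild-type replicate 1, the lowest array for the bright photosynthesis genes, was the highest for pollen. *AGL94* had a mean signal below the first quartile of all probe sets, and the other pollen markers were above it. Anther and tapetum markers were lower too, with 4 of 6 called lower and 0 higher, and changes from −1.78 to −0.31. Their summed signals were 5848 to 7822 on the mutant arrays against 14759 to 14925 on the others, but most of each sum was *ATA27*. The mean log2 signal of this list was 9.16, 8.84 and 9.11 on the wild-type arrays and 7.78, 7.68 and 8.01 on the *top1α-2* arrays. Of 1 root and 2 seed storage markers, 0 were called. The root marker had a mean signal of 3.69, below the first quartile. The seed storage markers changed in opposite directions, by −1.19 and 0.66, at unadjusted limma p values of 0.00866 and 0.0402. The part of all these marker lists in the change of the photosynthesis genes was not tested. In whole inflorescences, a different share of green or pollen-bearing tissue and a different amount of transcript per cell cannot be told apart.

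**Figure D4:**
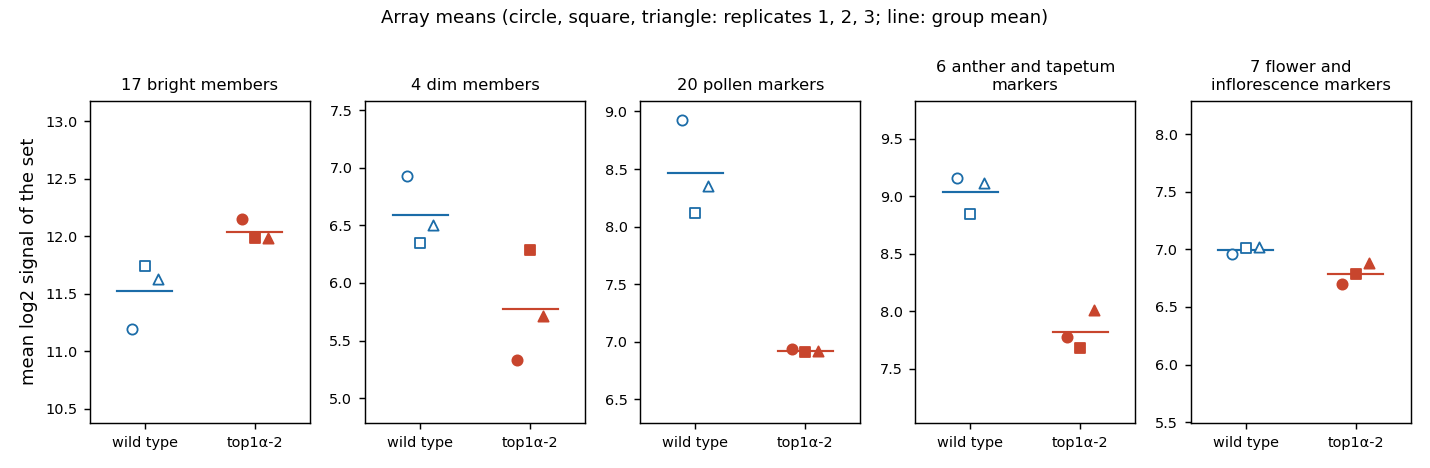
Mean log2 signal of each gene set on each array, in panels that all span the same range of 2.8 log2 units, with circles, squares and triangles for replicates 1, 2 and 3 and a line at each group mean. Wild-type replicate 1 is lowest for the 17 bright members, at 11.19, and highest for the 20 pollen markers, at 8.93.

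Other nuclear genes were measured through 8 further lists of symbols from photosynthesis and plastids. Matching was on symbols alone, and some matched genes act outside plastids or in other pathways. The lists held 44 genes, of which 3 rose and 0 fell. Of all probe sets 3.40% were called higher and 5.86% lower, and of the brightest 25% 7.43% and 7.30%. The median log2 change of the lists was 0.19, with a range from −1.28 to 0.89. Dim genes set the ends of this range, with mean signals of 5.3 at the low end and 2.02 and 5.45 at the high end. The difference of the lists from the members was not tested. At an unadjusted p under 0.05, 10 of the 44 were higher and 0 lower, beside 10.9% and 12.4% of all probe sets and 21.9% and 13% of the brightest 25%. Without wild-type replicate 1, or without *top1α-2* replicate 2 or 3, the number called was 0. Among 4 genes of antenna-related proteins and photoprotection, *LIL3:2* and *HCF101* rose and the other 2 were not called. *LIL3:2*, of a light-harvesting-like protein that supports chlorophyll synthesis, rose by 0.59 (limma adjusted p = 0.0333). *HCF101*, of a protein that assembles the iron-sulphur clusters of photosystem I, rose by 0.40 with an adjusted p of 0.0489. Among 19 genes matched by the list of plastid gene expression, *CRR41* rose by 0.73 with a limma adjusted p of 0.0250, and the other 18 were not called. *CRR41* is needed for the assembly of the plastid NDH complex.

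No gene of the 3 measured in the Calvin cycle and photorespiration list was called, and their median change was 0.54. *PRK* and *SBPASE*, of the phosphoribulokinase and sedoheptulose bisphosphatase of that cycle, had changes of 0.54 and 0.55 with limma adjusted p values of 0.0507 and 0.136. *TPI*, of the cytosolic form of triose phosphate isomerase, had 0.03. The 8 genes matched by the starch list had a median of 0.06 and the 4 matched by that of plastid import and proteases 0.24, with no calls. The lists of further tetrapyrrole enzymes, carotenoid synthesis and light regulators held 2, 3 and 1 measured genes and no calls, and the symbol *CCR2* in the second of these belongs here to a cinnamoyl-CoA reductase gene.

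The partner subunits encoded in the plastid were compared side by side. Of 27 plastid genes for photosystem, cytochrome and Rubisco subunits 4 rose and 0 fell, *psbH*, *psbE*, *petA* and *psbZ*, and the median change was 0.47. Of all probe sets 3.40% were called higher and 5.86% lower, and of the brightest 25% 7.43% and 7.30%. At an unadjusted p under 0.05, 13 of the 27 were higher and 0 lower. At that threshold the shares were 10.9% and 12.4% of all probe sets, and 21.9% and 13% of the brightest 25%. The number called was 0 without wild-type replicate 3 and without *top1α-2* replicate 1 or 2. Their array means were 9.67, 9.52 and 9.13 in the wild type and 10.01, 10.10 and 9.49 in *top1α-2*, so the groups overlapped and replicate 3 was the lowest array of each genotype. Among the wild-type arrays, replicate 1 had the highest mean of these plastid genes and the lowest mean of the bright nuclear genes. The plastid mean takes in dim genes too, and its order did not hold in each gene. In *psbT*, with a mean signal of 6.89, replicate 1 was at 8.21 against 5.67 and 5.57. In the brighter *psbE* it was at 10.66 against 11.60 and 11.17, and so the lowest. The difference between the lists was not tested, and the plastid list was drawn up after the nuclear values were seen.

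Across the processing settings tried, the direction of all 17 bright members was positive or, for *LHCB4.3* after quantile normalization, 0.00. *LHCB4.2* was called under 14 of 16 alternatives, *CaS* under 13, *PORB* under 11 and *CHL* and *PSBW* under 10 each. These counts take in 1 alternative that averages the probe sets of a gene. As each member has 1 probe set, that alternative left their signals unchanged and is no check on these calls. Of the members that were not called, *PSAE-1* passed under 4 alternatives, *PSB27* and *PSBY* under 2 each and *HEME1* and *HEME2* under 1 each.

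**Figure D5:**
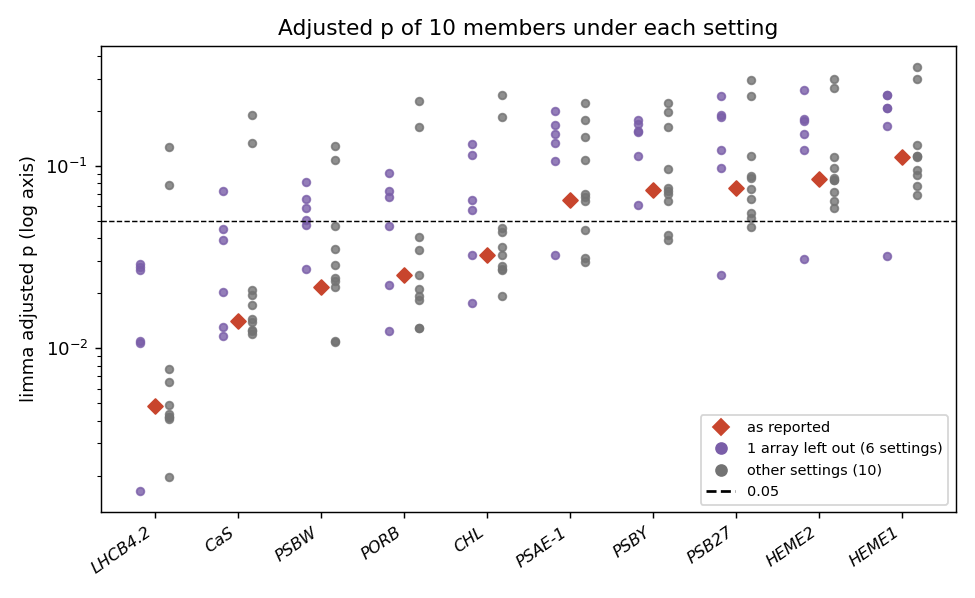
Limma adjusted p on a log axis for the 10 members with the smallest values, as reported (red diamonds), with 1 array left out (purple) and under 10 other settings (grey), with a dashed line at 0.05. *LHCB4.2* lies below the line in all fits with 1 array left out, and the 2 grey points above the line in each called gene are the fits with a variance prior without the trend and with no shared variance.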

How the data were processed

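Transcript levels were measured on 6 arrays, 3 per genotype. Groups follow the genotype label and replicate numbers the sample titles. The titles of the mutant arrays name them Trp1 where the genotype label reads top1a-2, and the labels do not explain that name. Per the submitters' processing notes, the deposited values are log2 signals made with affy and MAS5; no source used here gives versions, filters or an array build. Without 64 control probe sets, 22746 remained and were fitted by genotype in limma 3.58.1 (R 4.3.3, lmFit and eBayes with a trend), with Benjamini-Hochberg adjustment over all of them and no further normalization, pseudocount or filter. The test was checked on simulated data with independent noise in each probe set. Such data hold no shift shared by the genes of an array.

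The platform annotation names 1 gene for 13513 probe sets and several for 503, and 8730 are unnamed here. Of the 13513, 13436 matched the RefSeq table by gene ID, and the brightest probe set stood for a gene. The members and lists were chosen with earlier results of these data known. Full values are given for the 5 genes that define the set, called members, the 5 highest and 5 lowest changes and negative changes, and shortened values for the rest. In other lists, called genes were named, with *PRK*, *SBPASE*, *TPI* and *CCR2* chosen after their values were seen. Alternatives were other normalizations, a pseudocount of 16, a filter on dim probe sets, other variance priors, array weights, a replicate block and leaving out each array. A further alternative was the mean of the probe sets of each gene. Promoter motifs were planned and not run, as no sequence table was used here.

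Same-numbered arrays of the genotypes had deviations from their group means that correlated at 0.0283, 0.00123 and 0.0209, so the numbers were not taken to pair the arrays.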

Additional observations from a re-analysis of the deposited data

Results flagged for a closer look

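The 3′ minus 5′ signal of the first actin control, in probe sets outside the main measurement, was higher in *top1α-2* than in the wild type by 0.46 on the log2 scale with no overlap, and 5 other such differences overlapped. The bright photosynthesis genes and this control were both higher on the *top1α-2* arrays, and a link between them was not tested.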

How the results depend on the processing

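The median change of the 21 genes was 0.36 after quantile normalization, 0.55 after median centring and 0.28 to 0.58 with single arrays left out, the lowest without wild-type replicate 1. The count of members called higher was 0 with a variance prior without the trend and 0 with no shared variance, in place of 5; by the latter 30 probe sets in all were higher and 20 lower, and by the former 209 and 633, in place of 773 and 1334. The cause was not tested. With single arrays left out 1 to 9 members were called higher and 0 lower, and over all probe sets 357 to 794 were higher. With the replicate number as a block 5 members were called higher and 0 lower, and 748 probe sets in all were higher, so the block did not move these counts by over 1.5 times. In the other nuclear lists the block left 1 call in place of 3, and in the plastid list it gave 8 in place of 4. Without the dimmest 50% of probe sets *HEMA2*, *HEMA3*, *hemb2* and *hemf2* were not tested. *hemf2* changed sign without *top1α-2* replicate 1, to 0.04, and without wild-type replicate 2, to 0.02, and with single arrays left out its change ran from −0.24 to 0.04.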
